A study of Mus musculus with 4 samples.

Results

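The proteasome genes of rOvaries, ovaries reconstituted as grafts, were compared between mice given the mTOR kinase inhibitor INK128 and controls. They were taken as every symbol in the count table that starts with Psma, Psmb, Psmc, Psmd, Psme, Psmf or Psmg and goes on with a digit, and 4 pseudogene symbols were left out. This gave 50 of 54021 symbols. Of these, 49 encode subunits, regulators or assembly factors of the proteasome, and Psmc3ip shares the symbol pattern but encodes a partner of PSMC3 that acts in meiotic recombination. CPM are counts scaled to the size of the library. The mean expression of 48 of the 50 genes was above 10 CPM by library totals alone. These were tested together with all other genes above that level, 11758 in all. The CPM levels given below were also scaled with TMM factors.

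The series holds 4 RNA-seq libraries of rOvary tissue, 2 from the INK128 group (replicates 1 and 2) and 2 from the Control group (replicates 1 and 3). All 4 came from grafts collected 1 month after aggregates of primordial germ cells and gonadal somatic cells, taken from fetal ovaries of C57BL/6 mice carrying actin-GFP, were placed under the kidney capsule. The recipients in both groups were G2 Terc-/- females on a C57BL/6 background, which lack telomerase and were used as a model of premature aging, were 2 to 3 months old and had both ovaries removed. INK128 was given in the drinking water, at 0.75 μM per g of mouse by the labels and at 30 μM by the methods, and controls went without it. A graft of this kind holds donor cells and host cells, and nothing states that the libraries of a group came from separate mice, so p-values measure the spread between these libraries, which may be technical. In such bulk tissue, fewer cells of a type and less RNA per cell cannot be told apart.

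The proteasome degrades proteins that carry ubiquitin chains. Its 20S core is a barrel of alpha and beta subunits in which beta subunits hold the cutting sites, and the 19S particle caps the barrel, binds ubiquitin, unfolds the substrate with a ring of ATPases and feeds it in. Cells exposed to interferon replace the catalytic beta subunits Psmb5, Psmb6 and Psmb7 by Psmb8, Psmb9 and Psmb10, which makes the immunoproteasome and changes the peptides shown on MHC class I molecules. In growing oocytes and granulosa cells the proteasome turns over proteins that control meiosis and follicle growth, and mTOR signaling has been tied to both protein synthesis and proteasome levels.

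Libraries held 19130209 to 23029089 counts, and a floor of 3 counts corresponded to 0.127 to 0.161 CPM, which covers counting error only. The library Control 1 stood apart in that 4 Y-linked genes summed to 1021 counts in it and to 0 to 2 counts in the other 3, although the donor gonads were described as female. Oocyte markers (9 genes) summed to 1034 and 763 CPM with INK128, 745 CPM in Control 1 and 23.4 CPM in Control 3, with 8 of 9 higher in both INK128 libraries and 0 lower, where 34.5% of all tested genes were higher in both and 34% lower. Granulosa markers (8 genes) summed to 6103 and 7979 CPM with INK128 and to 2835 and 6203 CPM in controls, with 4 of 8 higher in both INK128 libraries and 0 lower, and theca and luteal markers (6 genes) to 4028 and 5177 CPM against 884 and 10836 CPM, with 1 of 6 higher and 1 lower. Inha alone gave 4070 and 5890 CPM of the granulosa sums with INK128 and 1680 and 2860 CPM in controls. The granulosa marker Amh was at 131 and 80.1 CPM with INK128, 435 CPM in Control 1 and 5.1 CPM in Control 3. Kidney markers (16 genes) summed to 115 and 244 CPM with INK128 and to 849 and 2137 CPM in controls, with 14 of 16 lower in both INK128 libraries and 1 higher. Immune markers (20 genes) summed to 467 and 437 CPM against 896 and 1294 CPM, with 14 of 20 lower and 0 higher. The part of these differences in the proteasome results was not tested.

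Most proteasome genes were higher with INK128. Of the 48 tested genes, 39 were higher in both INK128 libraries than in both controls, against 34.5% of all tested genes, 3 were lower in both (Psmd11, Psme3 and Psme4), against 34%, and 6 overlapped (Psmb8, Psmb9, Psmd1, Psmd2, Psmd5 and Psmf1). Their median log2 fold change was 0.72, a 1.65-fold higher level, beside a median of −0.03 over all tested genes. Higher by more than 1.5-fold were 30 of 48 (62.5%), against 21.2% of all tested genes, and lower by more than 1.5-fold were 2 (4.17%), against 24.1%. Summed over the 48 genes, the level was 6444 and 6428 CPM with INK128 and 3997 and 4170 CPM in controls, a ratio of means of 1.58.

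With edgeR's quasi-likelihood test, where a call needed an adjusted p under 0.05 and more than a 1.5-fold difference, 8 genes rose and 0 fell. The share called over all tested genes was 3.18% for rises and 3.19% for falls. The 8 were the beta subunits Psmb6, Psmb3, Psmb5 and Psmb4, the ATPase Psmc5, the lid subunit Psmd13 and the assembly chaperones Psmd9 and Psmg2. Their adjusted p lay between 0.0464 and 0.0496, close to the threshold, and another 18 genes with more than a 1.5-fold difference had an adjusted p between 0.05 and 0.1. At an unadjusted p below 0.05, 30 of the 48 were higher, against 17.7% of all tested genes, and 0 were lower, against 18.7%. DESeq2 called 27 higher, where it called 13.6% of all tested genes, and 0 lower, where it called 15.1%.

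The number of genes that passed depended on single libraries. Without Control 1, edgeR called 29 proteasome genes higher, against 22.7% of all tested genes, and 3 lower (Psmb8, Psmb9 and Psme4), against 23.1%. Without Control 3 it called 31 higher, against 21.3%, and 0 lower, against 21.4%, with 1 lower at an unadjusted p below 0.05, against 27.1%. With either INK128 library left out, it called no gene at all, of the proteasome or otherwise. Without INK128 1 and without INK128 2, the median log2 fold change of the 48 genes was 0.73 and 0.75, respectively. In these fits the lone library is assumed to vary like the pair of the other group. The 2 INK128 libraries differed by a median of 0.17 (absolute log2 difference) over the 48 genes and the 2 controls by 0.21, against 0.17 and 0.36 over all tested genes. No proteasome gene differed by more than 1.5-fold between the INK128 libraries, and 5 did between the controls (Psmb8, Psmb9, Psme4, Psme2b and Psmc1), each of them higher in Control 3.

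**Figure D1:**
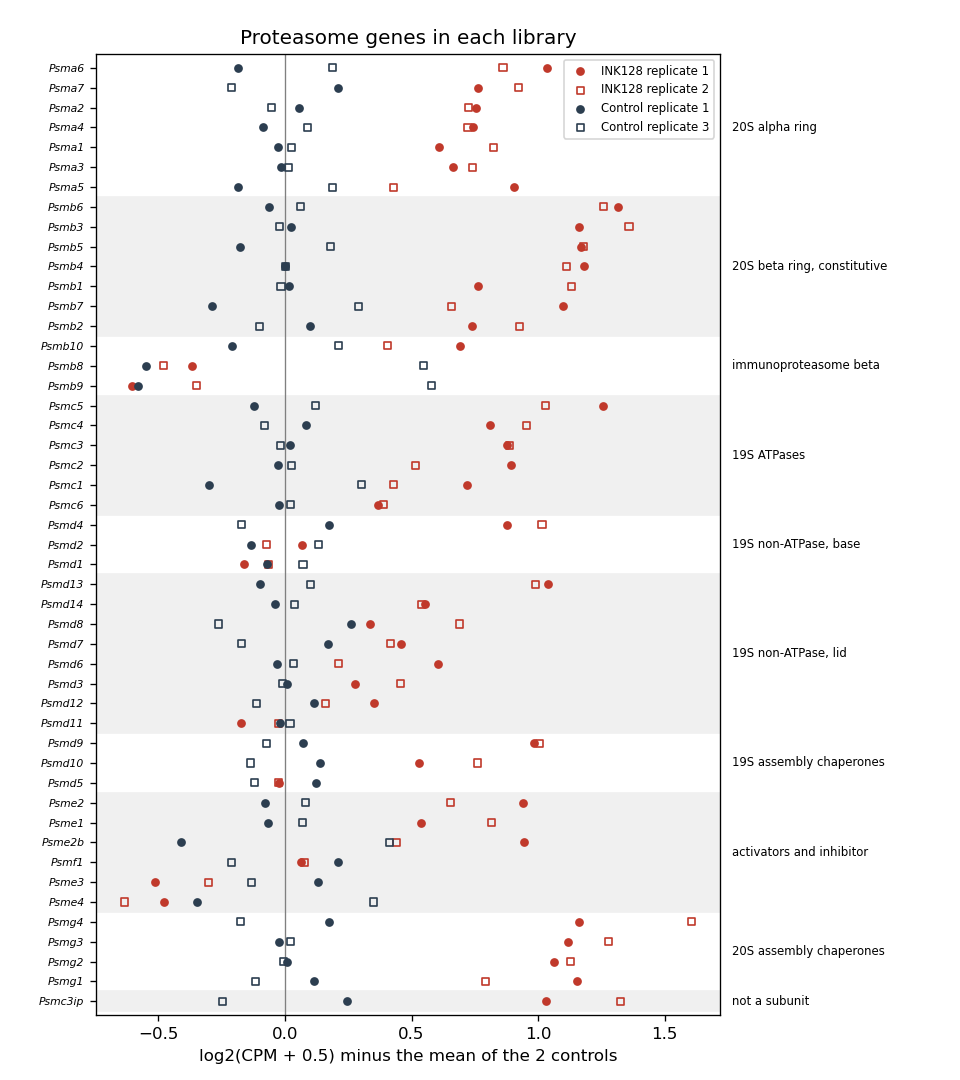
Level of each of the 48 tested genes in each library, as log2(CPM + 0.5) minus the mean of the 2 controls, in groups by role (circles and open squares tell replicates apart). The 39 genes with both INK128 libraries to the right of both controls include every constitutive core gene, every ATPase and every 20S chaperone, while Psmb8 and Psmb9 have Control 3 alone to the right.

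The constitutive beta ring of the 20S core held the largest set of called genes. All 7 of its genes were higher in both INK128 libraries than in both controls, against 34.5% of all tested genes. Their median log2 fold change was 1.15 (2.22-fold). Of the 7, 4 passed the edgeR test, against 3.18% of all tested genes, and 7 passed DESeq2, against 13.6%. Psmb6, the caspase-like catalytic subunit on chromosome 11 (mm10, 70525367 to 70527858), was at 257.4 and 247.7 CPM with INK128 and at 98.8 and 107.8 CPM in controls. It rose by a log2 fold change of 1.29 (0.17 SE, adjusted p = 0.0464), where SE is the standard error. Psmb5, the chymotrypsin-like subunit on chromosome 14 (54614119 to 54618022), was at 175.1 and 176.5 CPM against 68.5 and 88 CPM, with a log2 fold change of 1.17 (0.20 SE, adjusted p = 0.0486). The noncatalytic Psmb3 was at 186.6 and 213.8 CPM against 84.4 and 81.7 CPM, a log2 fold change of 1.27 (adjusted p = 0.0464). Psmb4, also noncatalytic, was at 323.4 and 308.4 CPM against 142.3 and 142.6 CPM, a log2 fold change of 1.15 (adjusted p = 0.0464). In these 4 genes the gap between the groups was several times the gap within either.

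Psmb7, the trypsin-like subunit, was less even. It was at 236.4 and 173.9 CPM with INK128 and at 90 and 134.6 CPM in controls, so that the groups did not overlap but Control 3 lay closer to the INK128 libraries, and its log2 fold change of 0.87 (0.29 SE) had an adjusted p of 0.111. Psmb1 and Psmb2 had log2 fold changes of 0.96 and 0.84 with adjusted p of 0.0563 and 0.0565. Per kb of the principal transcript, Psmb6 averaged highest of the 14 constitutive core genes over the 4 libraries, at 223 CPM per kb, and Psma3 lowest, at 35.8 CPM per kb.

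The alpha ring forms the gate of the barrel. All 7 genes (Psma1 to Psma7) were higher in both INK128 libraries, against 34.5% of all tested genes. Their log2 fold changes ran from 0.68 (Psma5) to 0.94 (Psma6), with a median of 0.73. None passed the edgeR test, with adjusted p from 0.0592 to 0.133, where 3.18% of all tested genes did. All 7 had an unadjusted p below 0.05, against 17.7% of all tested genes, and 6 of 7 passed DESeq2, against 13.6%. Psma2 was at 201.9 and 197.4 CPM with INK128 and at 124 and 114.9 CPM in controls. Psma5 was at 124.7 and 89.7 CPM against 58.3 and 75.7 CPM, the widest INK128 gap of the ring. Summed over both rings, the 14 core genes came to 2788 and 2815 CPM with INK128 (mean 2802 ± 18.7, SD, n = 2) and to 1428 and 1496 CPM in controls (1462 ± 48, SD, n = 2), a ratio of 1.92.

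Promoter sequences of 5 called genes and of the immunoproteasome gene Psmb9, which lay apart from them, are shown so that the letters bound by known regulators can be read beside the values. The 120 bases before the annotated start are printed 5′ to 3′ from RefSeq (GRCm38.p6), with capitals for the antioxidant response element core TGACNNNGC, which NFE2L1 and NFE2L2 bind, for CCAAT (bound by NF-Y) and for GGGCGG (SP1), each searched on both strands. Of the 4 called beta subunits, Psmb6 and Psmb5 hold the antioxidant core at −9 to −1 and −47 to −39 from the start, Psmb3 holds CCAAT at −85 to −81 and −43 to −39, and Psmb4 holds none of these letters in the stretch. In Psmd9 the antioxidant core at −31 to −23 overlaps GGGCGG on the other strand. Psmb9 holds GGGCGG at −55 to −50 and, on the other strand, CCAAT at −8 to −4.
Psmb6, chr11:70525237-70525356, + strand: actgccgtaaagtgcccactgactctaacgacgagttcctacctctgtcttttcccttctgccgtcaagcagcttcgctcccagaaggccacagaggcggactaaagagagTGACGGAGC
Psmb5, chr14:54617996-54618115, - strand: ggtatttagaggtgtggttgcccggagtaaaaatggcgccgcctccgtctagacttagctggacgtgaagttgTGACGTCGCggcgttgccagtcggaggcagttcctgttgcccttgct
Psmb3, chr11:97703314-97703433, + strand: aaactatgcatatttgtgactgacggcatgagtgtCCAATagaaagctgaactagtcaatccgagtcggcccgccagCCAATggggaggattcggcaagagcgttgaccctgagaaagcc
Psmb4, chr3:94886959-94887078, - strand: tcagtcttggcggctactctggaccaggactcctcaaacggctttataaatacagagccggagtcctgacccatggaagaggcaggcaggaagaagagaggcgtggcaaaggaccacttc
Psmd9, chr5:123228070-123228189, + strand: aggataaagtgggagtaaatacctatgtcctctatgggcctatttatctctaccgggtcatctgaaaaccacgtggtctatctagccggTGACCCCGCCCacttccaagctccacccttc
Psmb9, chr17:34187331-34187450, - strand: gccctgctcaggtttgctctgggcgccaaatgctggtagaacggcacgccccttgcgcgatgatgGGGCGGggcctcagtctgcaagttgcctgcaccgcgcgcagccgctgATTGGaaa

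The same letters were counted in all promoters. Over the whole promoter window, from 250 bases before the start to 50 after it, 42 of the 50 genes had an entry. The antioxidant core was in 6 of 42 (14.3%), namely Psmb5, Psmb6, Psmc6, Psmd9, Psmd12 and Psme4, against 14% of 27025 promoters in the table. CCAAT was in 15 (35.7%) against 41.1%, and GGGCGG in 23 (54.8%) against 38.2%. The interferon-stimulated response element was in 5 (11.9%; Psmb3, Psmd4, Psmd9, Psme1 and Psmg4) against 3.99%. A match is a description of the letters and no test of binding.

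The immunoproteasome subunits Psmb8 and Psmb9 lay apart from the constitutive beta ring, and Psmb10 was closer to it. Psmb8 (chromosome 17, 34197721 to 34201454), which takes the place of Psmb5, was at 33.2 and 30.6 CPM with INK128 and at 29.2 and 63 CPM in controls. Psmb9 (chromosome 17, 34181987 to 34187764), which takes the place of Psmb6, was at 15.9 and 19.1 CPM against 16.2 and 36.8 CPM. For both genes the INK128 libraries and Control 1 lay together and Control 3 alone was high. Their log2 fold changes of −0.53 (0.40 SE, adjusted p = 0.38) and −0.60 (0.45 SE, adjusted p = 0.375) did not pass the test. Without Control 1 both were called lower, at −1.0 (adjusted p = 0.00153) and −1.08 (adjusted p = 0.00374), and without Control 3 they were at 0.11 and 0.10. Psmb10, which takes the place of Psmb7, was at 67.4 and 55.1 CPM against 35.8 and 48.1 CPM, higher in both INK128 libraries, with a log2 fold change of 0.55 (0.24 SE, adjusted p = 0.171).

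Each immunoproteasome subunit was set against its constitutive counterpart within each library, which does not depend on library scaling. All 3 ratios were lower in both INK128 libraries than in both controls. A ratio also falls where its constitutive gene rises. Psmb5, Psmb6 and Psmb7 had log2 fold changes of 1.17, 1.29 and 0.87, beside −0.53, −0.60 and 0.55 for Psmb8, Psmb9 and Psmb10. How often other gene pairs separate like this was not computed. The log2 ratio of Psmb8 to Psmb5 counts was −2.40 and −2.53 with INK128 and −1.23 and −0.48 in controls, a difference of −1.61, or 3.05-fold lower. For Psmb9 to Psmb6 it was −4.02 and −3.69 against −2.61 and −1.55, a difference of −1.78, or 3.43-fold lower. For Psmb10 to Psmb7 it was −1.81 and −1.66 against −1.33 and −1.49, a difference of −0.33, or 1.25-fold lower. The exact two-sided permutation test over the 4 libraries gave p = 0.333 for each of the 3 ratios (0.333 after Benjamini-Hochberg adjustment), the smallest p that 2 against 2 can give. Because the groups did not overlap, leaving out any single library could not change the direction. Taken from the fitted log2 fold changes with exon length offsets, the differences were −1.25, −1.55 and −0.67 in the same order. Per kb of transcript, Psmb8 made up 9.47% and 8.75% of the Psmb8 and Psmb5 pair with INK128 and 19.1% and 28.3% in controls, and Psmb9 3.51% and 4.36% of its pair against 8.83% and 16.8%. Psmb10 made up 20.1% and 21.9% of its pair against 26% and 24%, a smaller difference.

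**Figure D2:**
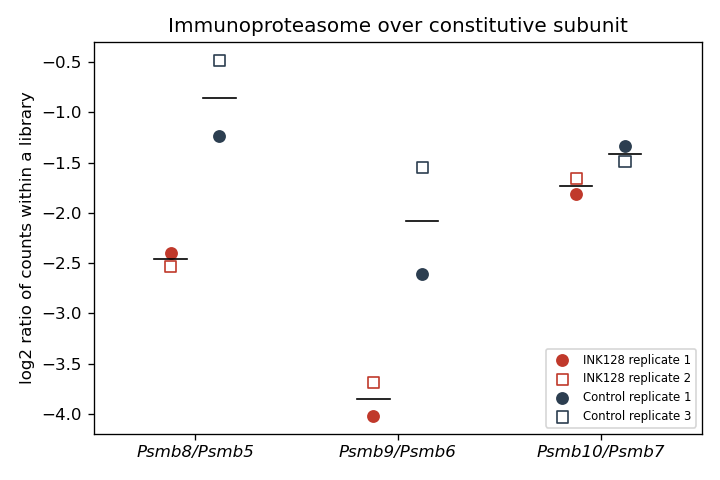
Log2 ratio of the counts of each immunoproteasome subunit to its constitutive counterpart in each library, with the group means as lines. The INK128 libraries lie below both controls in all 3 pairs, by a mean of 1.61 for Psmb8/Psmb5, 1.78 for Psmb9/Psmb6 and 0.33 for Psmb10/Psmb7, and the controls lie further apart than the INK128 libraries in the first and second pairs.

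Genes that act beside the immunoproteasome in MHC class I presentation were lower or overlapped. Of 10 such genes, 7 were lower in both INK128 libraries, against 34% of all tested genes, and 0 were higher, against 34.5%. Their median log2 fold change was −0.82. The class I light chain B2m was at 424 and 437 CPM against 799 and 964 CPM, a log2 fold change of −1.03 (adjusted p = 0.0507). Tap1, the neighbour of Psmb9 that pumps peptides into the endoplasmic reticulum, was also highest in Control 3, at 27.4 and 37.7 CPM against 28.2 and 73.2 CPM. Of the marker lists given above, immune, kidney and theca and luteal markers were highest in Control 3 too and oocyte markers lowest, while in Control 1 immune markers were above both INK128 libraries and Psmb8 and Psmb9 lay with them. The part of these cell types in the values was not tested.

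The 19S particle was higher with INK128 in its summed level. The sum over its 17 genes was 2727 and 2666 CPM with INK128 and 1873 and 1892 CPM in controls, a ratio of 1.43 (1.92 for the core), and that difference was not tested. All 6 ATPase genes, whose products unfold the substrate, were higher in both INK128 libraries, against 34.5% of all tested genes. Their median log2 fold change was 0.80. Psmc5 was at 232.9 and 198.7 CPM with INK128 and at 89.3 and 105.8 CPM in controls and rose by a log2 fold change of 1.15 (0.20 SE, adjusted p = 0.0486). Psmc4 and Psmc3 came next with 0.89 (adjusted p = 0.0516) and 0.88 (adjusted p = 0.0507), and Psmc6 was lowest with 0.38 (adjusted p = 0.156).

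The large scaffold subunits of the base had overlapping levels. Psmd2 was at 234.4 and 212.2 CPM with INK128 and at 203.7 and 245.1 CPM in controls, a log2 fold change of −0.01 (0.19 SE). Psmd1 was at 146.2 and 156.1 CPM against 155.6 and 171.8 CPM, a log2 fold change of −0.12 (0.17 SE) that became 0.22 with offsets for exon length. For both the groups overlapped. Psmd4, a ubiquitin receptor of the base, was at 207.6 and 228.3 CPM against 127.1 and 99.9 CPM, with a log2 fold change of 0.94 and an adjusted p of 0.0573.

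Of the 8 lid subunits, 7 were higher in both INK128 libraries, against 34.5% of all tested genes, and Psmd11 was lower in both, against 34%. Their median log2 fold change was 0.43. Psmd13 alone passed the test, at 140 and 135.3 CPM with INK128 against 63.4 and 72.8 CPM, a log2 fold change of 1.01 (0.17 SE, adjusted p = 0.0484). Psmd14, the deubiquitinase that strips ubiquitin chains from the substrate, was at 97.3 and 96.5 CPM against 64.5 and 68 CPM, a log2 fold change of 0.55 that lay under the 1.5-fold limit (adjusted p = 0.0858). The other lid genes, Psmd8, Psmd7, Psmd6, Psmd3 and Psmd12, had log2 fold changes of 0.26 to 0.50. Psmd11 was at 70.7 and 78.3 CPM against 78.7 and 80.9 CPM, a difference of −0.10 on the log2 scale.

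Chaperones of the Psmg family build the 20S core. All 4 chaperones of the 20S core (Psmg1 to Psmg4) were higher in both INK128 libraries, against 34.5% of all tested genes. Their median log2 fold change was 1.18 (2.26-fold). Psmg2, the partner of Psmg1 in the first of the heterodimers, was at 41.5 and 43.4 CPM with INK128 and at 19.7 and 19.5 CPM in controls and rose by a log2 fold change of 1.11 (0.19 SE, adjusted p = 0.0486). Psmg4 had the highest log2 fold change of all 48 genes, 1.43, but its levels of 28.8 and 39.4 CPM against 14.3 and 11.1 CPM gave an adjusted p of 0.0526. Psmg3 was at 27.1 and 30.3 CPM against 12 and 12.4 CPM, a log2 fold change of 1.24 (adjusted p = 0.0507).

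Of the 3 chaperones of the 19S ATPase ring, Psmd9 (57.3 and 58.1 CPM with INK128, 30.2 and 27.3 CPM in controls) rose by a log2 fold change of 1.0 (0.18 SE, adjusted p = 0.0496). Psmd10 was at 32.2 and 37.9 CPM against 24.4 and 20.1 CPM, a log2 fold change of 0.66 (adjusted p = 0.117). Psmd5 was at 53 and 52.9 CPM against 58.7 and 49.5 CPM, and its groups overlapped. The 3 ranged from −0.03 to 1.0 on the log2 scale. Pomp, the maturation factor of the core, is no Psm symbol and was at 153 and 134 CPM against 80.7 and 85 CPM, a log2 fold change of 0.79 (adjusted p = 0.0563).

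Activators that dock on the core in place of the 19S particle went in different directions. Psme1 and Psme2, the subunits of the interferon-inducible activator PA28, were higher in both INK128 libraries. Psme1 was at 174.6 and 212 CPM against 114.6 and 126 CPM, a log2 fold change of 0.68 (adjusted p = 0.0818), and Psme2 at 111.7 and 91.5 CPM against 54.8 and 61.3 CPM, a log2 fold change of 0.81 (adjusted p = 0.0629). The nuclear activator Psme3 was lower in both, at 73.3 and 85 CPM against 114.8 and 95.7 CPM, a log2 fold change of −0.41 (0.19 SE, adjusted p = 0.192). Psme4, which encodes the activator PA200, was lower in both as well, at 69.5 and 62.3 CPM against 76.1 and 123.6 CPM. Its log2 fold change was −0.60 (0.28 SE, adjusted p = 0.197). It was −0.92 without Control 1, −0.22 without Control 3 and −0.19 with offsets for exon length. Neither activator passed the test with all 4 libraries. The inhibitor Psmf1 overlapped, at 45.8 and 46.2 CPM against 50.8 and 37.8 CPM. Psme2b, a near copy of Psme2 that can share its reads, was at 36.4 and 25.5 CPM against 13.9 and 25 CPM and is uncertain.

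**Figure D3:**
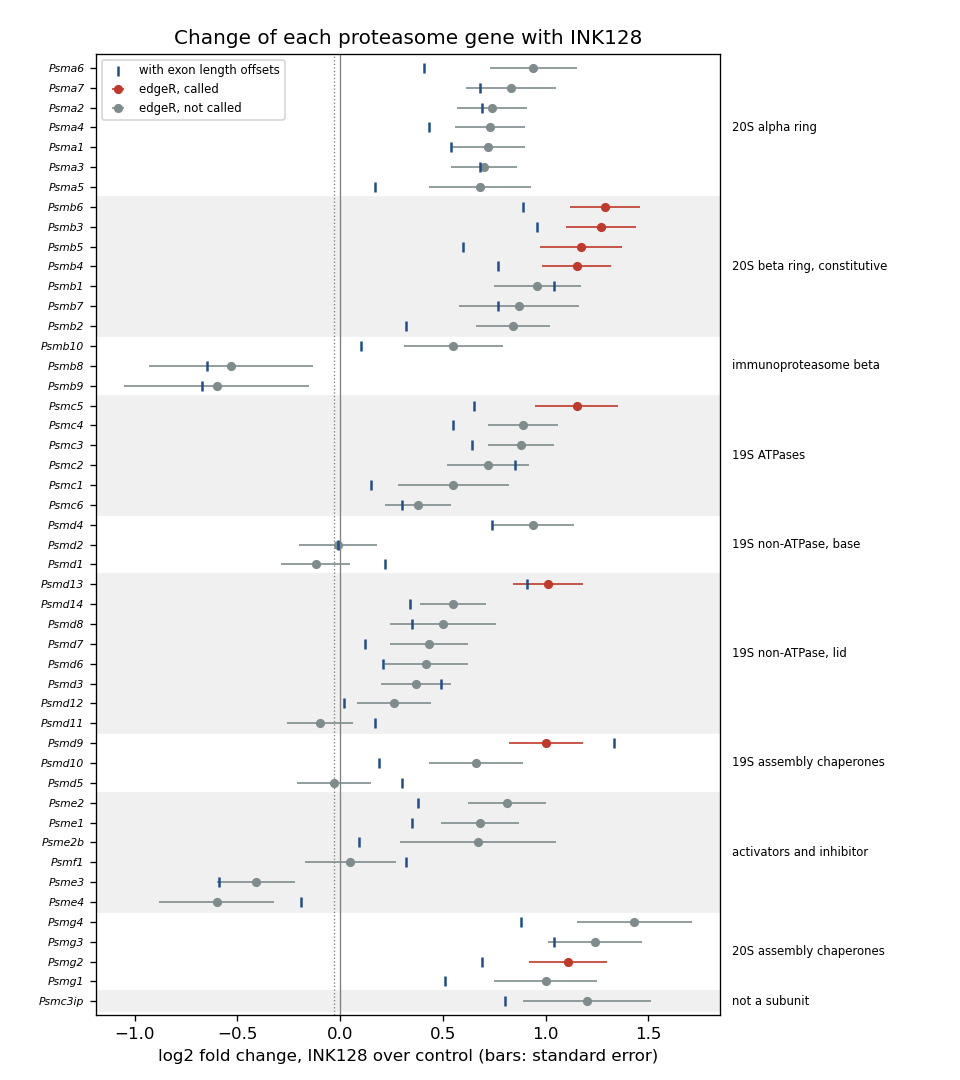
Log2 fold change of each of the 48 tested genes with its standard error, in red where edgeR called it, the dotted line marking the median of all tested genes (−0.03) and blue ticks the value with exon length offsets. The constitutive beta ring and the 20S chaperones lie furthest to the right, with medians of 1.15 and 1.18, and Psmb8, Psmb9, Psme3 and Psme4 lie between −0.60 and −0.41.

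The proteasome genes had short transcripts, and length went with the change in these libraries. Their median exon length was 2804 bases against 4468 over all tested genes, and log2 fold change correlated with log2 exon length at Pearson r = −0.31 across 11700 tested genes and at −0.57 across the 48, as descriptions across genes that share the 4 libraries. With offsets for exon length in each library, the median log2 fold change of the 48 was 0.42, beside 0.05 over all tested genes, and r across the 48 was −0.07. The constitutive beta ring kept a median of 0.77, the 20S chaperones 0.78 and the alpha ring 0.54, while Psmb8 was at −0.65, Psmb9 at −0.67 and Psmb10 at 0.10. With these offsets 43 of the 48 were above 0. EdgeR then called 0 of the 48 in either direction, and 0% of all tested genes as well. At an unadjusted p under 0.05, 20 were higher, against 15.1% of all tested genes, and 1 was lower, against 12.2%. DESeq2 with the offsets called 14 higher, against 10.1% of all tested genes, and Psme3 lower, against 8.85%. The log2 fold change of Psmd9 went from 1.0 to 1.33 with the offsets, but its 7248 exon bases come from a GENCODE model that begins at 123169413, upstream of the RefSeq promoter shown above, and may not be the model that was counted.

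**Figure D4:**
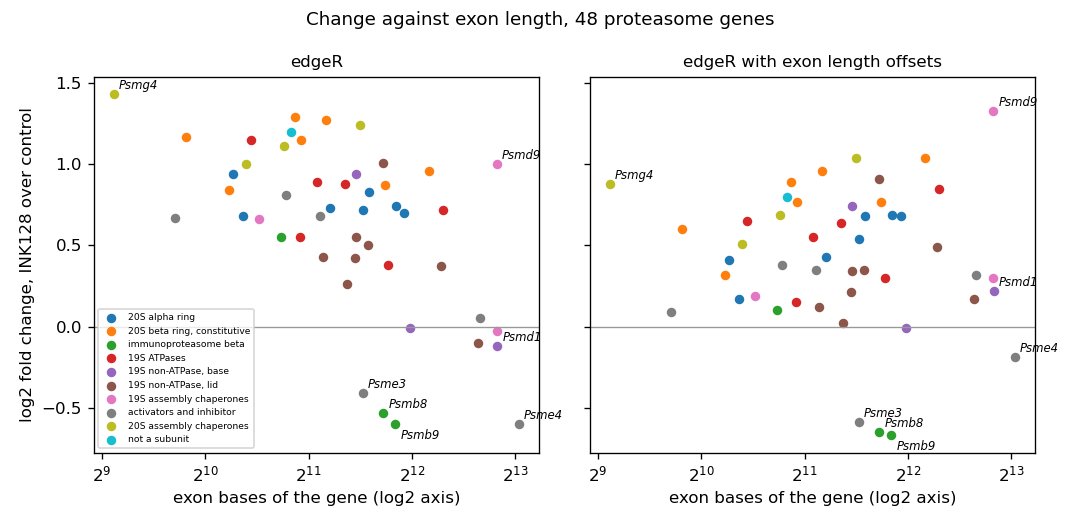
Log2 fold change of the 48 tested genes against exon bases (log2 axis), without (left) and with (right) exon length offsets, colored by role. The slope on the left (r = −0.57) is nearly gone on the right (r = −0.07), where the orange beta ring genes still lie above 0 and Psmb8, Psmb9 and Psme3 lie lowest.

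Among 44 other tested genes of the ubiquitin-proteasome pathway, edgeR called 3 higher, against 3.18% of all tested genes, and 1 lower, against 3.19%. DESeq2 called 7 higher, against 13.6%, and 6 lower, against 15.1%, which is near the background in both directions. Sem1, a small subunit of the 19S lid, was at 153 and 117 CPM with INK128 and at 50.7 and 61.4 CPM in controls and rose by a log2 fold change of 1.27 (adjusted p = 0.0487). Rps27a, which encodes ubiquitin fused to a ribosomal protein, rose by a log2 fold change of 2.15 (adjusted p = 0.0484). The polyubiquitin gene Ubb was not called, with 0.66 (adjusted p = 0.114).

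Of 14 shuttling and p97 genes, which carry ubiquitinated proteins to the proteasome, 0 passed edgeR in either direction, against 3.18% and 3.19% of all tested genes. DESeq2 called 2 higher, against 13.6%, and 0 lower, against 15.1%, and their median log2 fold change was −0.10. The p97 gene Vcp had 0.10 (adjusted p = 0.741). Nfe2l1, the factor that induces proteasome genes when the proteasome is short, was at 373 and 336 CPM with INK128 against 361 and 530 CPM, a log2 fold change of −0.33 (adjusted p = 0.381), and the 6 tested genes of its pathway had a median of −0.27. The 9 other proteasome proteins had a median of 0.25 and the 6 ubiquitin and E1 genes a median of 0.40.

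The remaining symbols were low or no subunit. Psma8, the alpha subunit of the spermatoproteasome in testis, had 10 and 14 counts with INK128 and 21 and 14 in controls, and Psmb11, the beta subunit of the thymus, had 5 and 5 counts against 5 and 0. Neither reached the level for testing. Psmc3ip was at 22.1 and 27.2 CPM against 12.6 and 8.81 CPM, a log2 fold change of 1.20 (0.31 SE, adjusted p = 0.0723). Without it, the median over the other 47 tested genes was also 0.72. Where genes share exon bases and the strand setting of the counting is not known, reads cannot be told apart, which touches, among others, Psmb5 (Mir686, 12.1% of its exon bases), Psmb7 (Nek6, 11.8%), Psmb8 (Gm20496, 14.7%), Psmb9 (Tap1, 5.79%), Psmc3 (Slc39a13, 8.25%), Psmd13 (Sirt3, 10.1%), Psmg3 (Gm26938, 9.68%) and Psmc3ip (Mlx, 21.2%).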

How the data were processed

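RNA-seq counts of 4 rOvary libraries were analysed. The authors prepared NEBNext Ultra libraries, used Trimmomatic for trimming, HISAT2 for alignment to mm10 and featureCounts for counting on an annotation named RefGene, and deposited raw read counts per gene symbol, not normalized and not pooled. Strand and multi-mapping settings are not given in the sources used here. How multi-mapped reads were treated affects near copies such as Psme2 and Psme2b.

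Groups and replicate numbers were taken from the labels. From the counts, TMM factors (0.944 to 1.05) and CPM were computed with edgeR 4.0.16 in R 4.3.3, and groups were compared by edgeR's quasi-likelihood F test over 11758 genes passing a mean of 10 CPM, with Benjamini-Hochberg adjustment. A call needed an adjusted p under 0.05 and more than a 1.5-fold difference. Each standard error (SE) is the size of the log2 fold change divided by the square root of F. DESeq2 1.42.0, limma 3.58.1 (voom), other scalings and filters, offsets for exon length and GC content by a spline with 5 degrees of freedom, and leaving out each library were alternatives, and DESeq2 with length offsets or without Control 1, and the ratios under either offset, were added after seeing the data. Positions and lengths came from GENCODE M21 on mm10 (53447 of 54021 symbols matched, and all 50 proteasome symbols) and promoters from RefSeq GRCm38.p6. Log2 ratios used 0.5 counts added to each gene. The edgeR, DESeq2 and voom tests were first run on simulated counts with known changes, and edgeR with length offsets on a known length trend. The permutation test, the GC offsets and DESeq2 with length offsets were not.

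The proteasome genes and the lists were chosen with earlier results of these data known. All genes are accounted for by role. Values in every library are given for the immunoproteasome subunits and their counterparts, for every called gene and for the 5 highest and 5 lowest log2 fold changes, and for others as examples of a role. Some genes and a motif on these lists are not reported here.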

Additional observations from a re-analysis of the deposited data

How the results depend on the processing

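The median log2 fold change of the 48 proteasome genes was positive under every alternative tried, from 0.42 to 0.86, while the number of genes that passed the test ranged from 0 to 31. The 8 genes called higher became, beside the share called higher of all genes in the same fit, 27 with DESeq2 (13.6%), 30 with DESeq2 without Control 1 (20.2%), 14 with DESeq2 and length offsets (10.1%), 17 with CPM above 10 in all 4 libraries (8%), 20 with no filter beyond 1 count (3.66%), 26 at an adjusted p below 0.1 (13.1%) and 3 with library totals only (2.47%). The number was 0 with limma voom, with a mean CPM above 1 and with offsets for exon length or GC content, where the share of all genes was 0% as well. At an unadjusted p below 0.05 these fits had 30, 31, 20 and 33 higher, against 18.3%, 15.1%, 15.1% and 18.5% of all genes. Genes called lower, 0 in the reported fit, were 3 with DESeq2 without Control 1 (21% of all genes) and 1 with DESeq2 and length offsets (8.85%). Leaving out each library in turn gave 0 to 31 higher and 0 to 3 lower. The cause of their change with the setting was not tested.

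The pathway genes called, 3 higher and 1 lower of 44, became 7 and 6 with DESeq2 (13.6% and 15.1% of all genes), 5 and 3 with CPM above 10 in all libraries (8% and 7.14%), 5 and 5 with no filter (3.66% and 6.2%), 6 and 4 at an adjusted p below 0.1 (13.1% and 13.5%), 2 lower with library totals (4.93%), and 0 and 0 with limma voom, a mean CPM above 1 and either offset (0% each). Leaving out a library gave 0 to 9 higher and 0 to 11 lower, the highest of both without Control 1 (22.7% and 23.1%).

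For the median log2 fold changes, upper quartile factors gave 0.78 over all 48 genes, 0.80 for the alpha ring, 1.21 for the beta ring, 0.86 for the ATPases, 0.06 for the base and 1.24 for the 20S chaperones. Library totals, which moved the median of all tested genes from −0.03 to −0.15, gave 0.60, 0.61, 1.03 and 0.68 for the first 4 of these, 0.31 for the lid, 1.05 for the 20S chaperones and 0.24 for the activators and inhibitor. Exon length offsets gave 0.42 over all, 0.54 for the alpha ring, 0.77 for the beta ring, 0.59 for the ATPases, 0.22 for the base, 0.28 for the lid, 0.30 for the 19S chaperones, 0.78 for the 20S chaperones and 0.21 for the activators. GC offsets gave 0.86 over all, 0.93 for the alpha ring, 0.06 for the base, 0.51 for the lid and 0.87 for the 19S chaperones. A mean CPM above 1 gave 0.77 over all, 0.79 for the alpha ring, 1.20 for the beta ring and 0.05 for the base, and no filter gave 0.76, 0.77 and, for the base, 0.03. The base, at −0.01 in the reported fit, was at 0.00 without ribosomal protein genes in the TMM factors. Leaving out a library gave medians of 0.68 to 0.75 over all 48, 0.68 to 0.75 for the alpha ring, 0.99 to 1.17 for the beta ring, −1.0 to 0.11 for the immunoproteasome subunits, 0.71 to 0.85 for the ATPases, −0.15 to 0.12 for the base, 0.30 to 0.44 for the lid and 0.23 to 0.30 for the activators.

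Of 314 values for 21 named genes, 227 kept their direction and their side of the threshold, 53 no longer passed, 28 newly passed and 6 changed sign. The sign changes were Psmb8 (0.11) and Psmb9 (0.10) without Control 3, Psmd1 with length (0.22) and GC offsets (0.06), and Psmf1 with library totals (−0.07) and without Control 3 (−0.16). Leaving out a library moved Psmb8 between −1.0 and 0.11, Psmb9 between −1.08 and 0.10 and Psmf1 between −0.16 and 0.27. With groups that did not overlap, leaving out a library could not reverse the immunoproteasome ratios. These ratios were lower with INK128 in the other alternatives run for them too. With 1 count added they were as reported, and leaving out a library gave differences of −1.98 to −1.23 for Psmb8/Psmb5, −2.30 to −1.25 for Psmb9/Psmb6 and −0.40 to −0.25 for Psmb10/Psmb7. Differences of the fitted log2 fold changes, added after seeing the data, were −1.25, −1.55 and −0.67 with exon length offsets and −1.68, −1.88 and −0.59 with GC offsets. No paired analysis was run, because nothing states that libraries were paired across the groups.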
